A study of Mus musculus with 6 samples.

Results

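Pou5f1, Sox2 and Klf4 encode transcription factors at the core of the pluripotency network of mouse embryonic stem cells. They were examined in 3 intervals of the mm9 genome, chosen by position so that each holds a gene with its known enhancers. The Pou5f1 interval ran from 35635001 to 35660000 on chromosome 17, the Sox2 interval from 34540001 to 34670000 on chromosome 3 and the Klf4 interval from 55470001 to 55560000 on chromosome 4. Together they span 245 kb and were cut into 123 bins of 2 kb, set beside 1290791 such bins that cover the nuclear chromosomes. They hold 3505 of the 20807838 nuclear cytosines listed for 5-hydroxymethylcytosine (5hmC) and 1482 of the 6246187 listed for 5-formylcytosine (5fC).

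The DNA came from E14, an established mouse embryonic stem cell line grown with serum and LIF on gelatin and given no further treatment. The labels describe 6 Pvu-Seal-seq libraries from 2 biological replicates. The first, a culture at passage 14, gave 2 technical replicates for each mark, and the other, at passage 12, gave 2 more for 5hmC. In Pvu-Seal-seq the enzyme PvuRts1I cuts DNA near modified cytosines, and the tagged fragments are captured, so that each cut end points to a cytosine. For each mark the deposited table has a single read count at every listed cytosine and none per library. Spread between replicates is thus unknown, and regions and marks could not be tested against each other. The 95% Wilson intervals below cover counting error only, since neither neighbouring cytosines nor PCR reads are independent of each other. An unlisted cytosine may still carry a mark, because the rule for listing is unknown and no cytosine is listed with fewer than 2 reads. Whether reads could be mapped to unlisted bases was not tested.

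5hmC is the first product of the oxidation of 5-methylcytosine by the TET enzymes, and 5fC is a later one that the glycosylase TDG can excise. In embryonic stem cells 5hmC is known to be common in gene bodies and around enhancers and to be low at promoters rich in CG dinucleotides, where little 5-methylcytosine is present. Pou5f1 encodes OCT4, a POU-domain factor that binds many enhancers together with the HMG-box factor SOX2. KLF4 is a zinc finger factor of the same network. Pou5f1 has a proximal and a distal enhancer just upstream of its gene, whereas Sox2 and Klf4 are also served by enhancer clusters far downstream.

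The starts of the genes were located in the mm9 coordinates of the tables from the listed cytosines themselves. RefSeq promoter sequences of each region, which are of build GRCm38, were laid over the tables at their own spacing and moved together. At the best offset every listed cytosine under them fell on a cytosine of the same dinucleotide and strand. This held for 372 of 372 listed cytosines around Pou5f1, 84 of 84 around Sox2 and 36 of 36 around Klf4. Among other offsets with at least 50% as many listed cytosines under the promoters, the highest share was 13.0%, 30.9% and 50.0%. Offsets with fewer were left out of this comparison. For Klf4 the place rests on the fewest cytosines, 25 below and 11 above the gene. By this match Pou5f1 started at 35642977 on the plus strand of chromosome 17 and, with its RefSeq length, ended at 35647722. Sox2 lay on the plus strand of chromosome 3 from 34548917 to 34551383, and Klf4 on the minus strand of chromosome 4 from 55545347 down to 55540009. The promoters of the members held too few listed cytosines to be placed by themselves.

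The sequences of the 250 bases before each start are shown because they are almost free of listed cytosines. Those of Sox2 and Klf4 are also dense in CG. They are RefSeq sequences of build GRCm38, read 5′ to 3′ on the strand of the gene, with every CG in capitals. Their places in mm9 are chr17:35642727-35642976 (plus) for Pou5f1, chr3:34548667-34548916 (plus) for Sox2 and chr4:55545348-55545597 (minus) for Klf4.
Pou5f1: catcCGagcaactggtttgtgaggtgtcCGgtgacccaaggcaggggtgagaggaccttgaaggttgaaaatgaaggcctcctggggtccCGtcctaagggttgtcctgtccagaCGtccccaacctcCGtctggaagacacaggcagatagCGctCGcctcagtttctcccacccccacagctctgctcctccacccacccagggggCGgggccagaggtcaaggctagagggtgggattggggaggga
Sox2: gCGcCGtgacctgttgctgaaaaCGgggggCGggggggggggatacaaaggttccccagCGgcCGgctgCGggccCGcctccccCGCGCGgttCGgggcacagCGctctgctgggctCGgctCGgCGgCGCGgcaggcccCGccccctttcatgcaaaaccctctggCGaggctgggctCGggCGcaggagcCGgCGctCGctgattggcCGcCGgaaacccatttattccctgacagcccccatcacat
Klf4: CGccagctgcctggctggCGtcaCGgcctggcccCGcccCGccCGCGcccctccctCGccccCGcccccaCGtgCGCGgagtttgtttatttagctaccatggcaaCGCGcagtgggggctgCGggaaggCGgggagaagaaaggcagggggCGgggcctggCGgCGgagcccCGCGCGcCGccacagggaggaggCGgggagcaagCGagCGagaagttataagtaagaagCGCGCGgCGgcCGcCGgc
The Pou5f1 stretch has 8 CG dinucleotides, that of Sox2 27 and that of Klf4 32. No cytosine of either mark was listed in the Sox2 and Klf4 stretches. In the Pou5f1 stretch 1 cytosine was listed, the plus-strand cytosine of the fourth CG. It was in the 5fC table with 9 reads and lay 135 bases before the start.

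For contrast, the promoter of the long noncoding RNA gene Gm3143 lies inside the Sox2 interval, at chr3:34615585-34615834 on the minus strand. It is shown with every base that has a listed cytosine, on either strand, in capitals.
Gm3143: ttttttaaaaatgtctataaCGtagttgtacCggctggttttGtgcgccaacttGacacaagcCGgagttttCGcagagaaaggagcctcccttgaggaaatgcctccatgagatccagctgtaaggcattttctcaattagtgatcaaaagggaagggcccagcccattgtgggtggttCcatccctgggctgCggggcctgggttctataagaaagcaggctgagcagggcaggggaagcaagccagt
In these 250 bases there are 6 CG dinucleotides and 11 listed cytosines. Gm3143 was chosen because it was the only promoter inside the intervals with at least 10 listed cytosines, enough to be placed by itself. Its larger number of listed cytosines thus follows from the choice. It had fewer CG dinucleotides than Sox2, with 27, and Klf4, with 32, but nearly as many as Pou5f1, with 8.

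The start of Pou5f1 lay in a stretch of 2152 bases without a listed cytosine of either mark, from position -134 to 2017 relative to the start. Upstream of that stretch stood the lone 5fC cytosine, and before it another 1777 bases were unlisted. In the last 3.5 kb before the start, the part that includes the enhancers near the gene, only 5 cytosines were listed for 5hmC. They lay between positions -3068 and -1913 and had between 3 and 9 reads each, and none of them was listed for 5fC. Inside the 4.746 kb gene 13 cytosines were listed for 5hmC with 56 reads and 4 for 5fC with 41 reads, or 2.74 and 0.843 per kb. The deepest of these for 5fC lay 2018 bases after the start, with 20 5fC reads and 8 5hmC reads. The 5 kb after the gene held 79 5hmC cytosines with 1199 reads, and the 5 kb before it 10 cytosines with 92 reads. Listed 5hmC was therefore sparse before and inside Pou5f1 and frequent beyond its end. An internal start of Pou5f1 in the RefSeq table, at 35645752, had 653 unlisted bases around it.

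Sox2 had no listed cytosine of either mark anywhere in its transcribed region, which is 2.467 kb long. The unlisted stretch around it measured 6974 bases, from position -2285 to 4688. At its upstream edge stood a CA cytosine with 4 5hmC reads, and a CG cytosine at position -2335 had 44 5hmC and 8 5fC reads. Of the stretches without a listed cytosine in the 500 kb on either side, 1 was longer, at 7050 bases. The 2 bins of 2 kb around the gene were empty for both marks, as were 8.49% of all nuclear bins. In the Pou5f1 and Klf4 intervals 0 of 13 and 0 of 45 bins were empty. In the 5 kb upstream of Sox2 there were 22 5hmC and 9 5fC cytosines, and in the 5 kb downstream 46 and 11.

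The Klf4 gene was listed along most of its length but not at its start. A stretch of 1444 bases, from position -363 to 1080, held no listed cytosine. It was bounded upstream by a minus-strand CG cytosine with 4 5fC reads and downstream by a CG cytosine with 3 5hmC reads. Over the 5.339 kb gene 53 cytosines were listed for 5hmC with 603 reads and 19 for 5fC with 268 reads, or 9.93 and 3.56 per kb. A plus-strand CG cytosine 3172 bases after the start had 52 5fC reads and 20 5hmC reads. The 5 kb downstream of the gene were denser, with 83 5hmC and 40 5fC cytosines, than the 5 kb upstream, with 52 and 20.

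**Figure D1:**
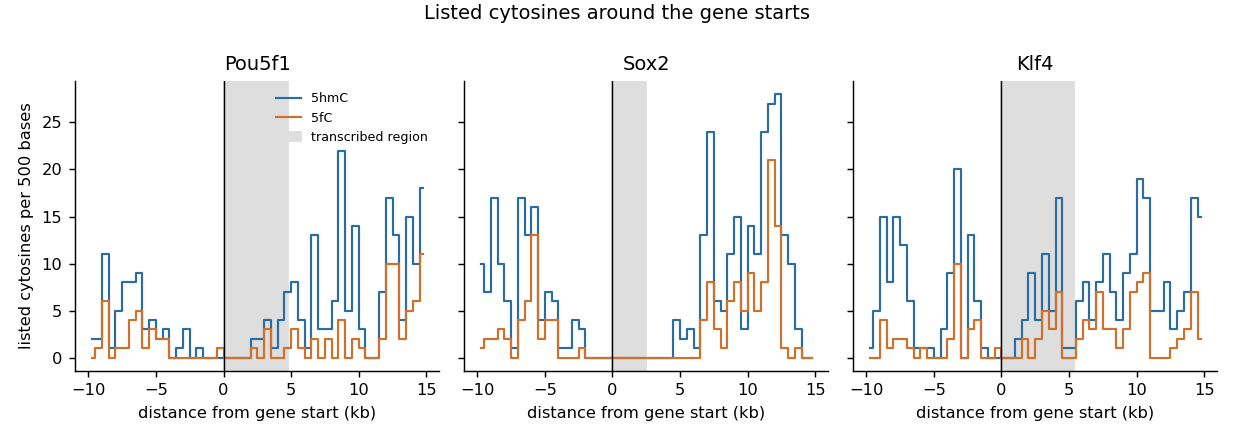
Listed cytosines in windows of 500 bases (vertical axis, number) against the distance from the gene start in kb along the direction of transcription, for 5hmC and 5fC around Pou5f1, Sox2 and Klf4, with the transcribed region shaded. The 5hmC line is at 0 on both sides of each start, and the 5fC line is too at Sox2, whereas at Pou5f1 and Klf4 the window just before the start holds 1 5fC cytosine.

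The stretches at the members' starts were compared with those at 126 other starts placed in the same regions, of which 62 had at least 20 CG cytosines on both strands of their 300 promoter bases. Starts of 1 gene and starts facing each other share bases, so 1 stretch can be counted at more than 1 start. By region the promoters, with those of the members, numbered 99 around Pou5f1, 12 around Sox2 and 19 around Klf4. The CG-rich ones were only Dnajc19 around Sox2, and Rad23b, Gm12505 and Gm12506 around Klf4, apart from the members. Gm12506 shares the stretch of Klf4. All other CG-rich starts lay around Pou5f1, so Sox2 and Klf4 were compared mostly with starts on another chromosome. At the CG-rich starts the median stretch was 1326 bases and the longest 5280. The Sox2 stretch was longer than at each of the 126 other starts. The Pou5f1 stretch was exceeded at 11 of the 62 CG-rich starts and that of Klf4 at 26. Unlisted CG-rich promoters were common in these regions. Of 2640 CG cytosines in the CG-rich promoters 3.60% were listed for 5hmC (interval 2.95 to 4.38%), against 37.9% (34.0 to 42.0%) of the 562 in the other promoters. For 5fC the shares were 1.55% (1.15 to 2.10%) and 16.2% (13.4 to 19.5%). The 300 promoter bases had no 5hmC cytosine at 42 of the 62 CG-rich starts. Within 1 kb on either side of the start 0 5hmC cytosines were listed at Pou5f1, Sox2 and Klf4, as at 7 of these 62 starts. The absence of listed 5hmC from the members' promoters was thus shared with most of these CG-rich starts, nearly all of them around Pou5f1. The length of the Sox2 stretch was not reached by any of them.

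**Figure D2:**
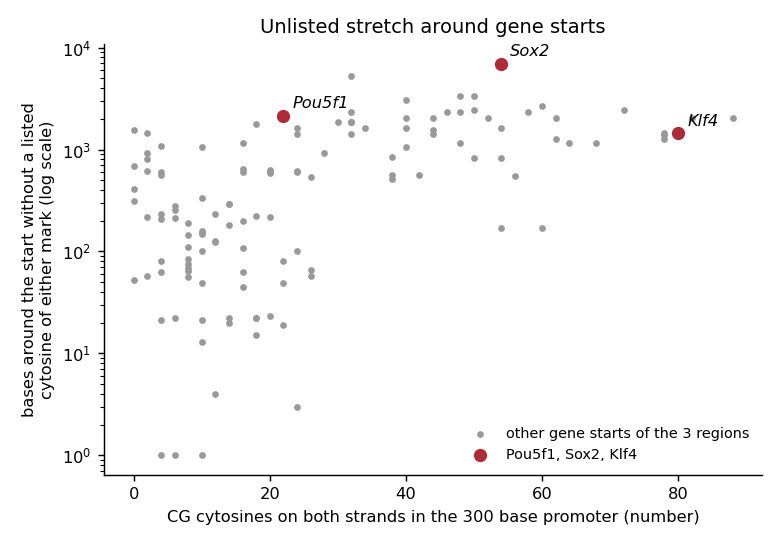
Length in bases of the stretch around each gene start without a listed cytosine of either mark (vertical, log scale, with starts that fall on a listed base drawn at 1) against the number of CG cytosines in the 300 base promoter (horizontal). Grey points are 126 other starts of the 3 regions, and red points are the members, with Sox2 at 6974 bases above all others.

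Away from the starts the intervals were not poor in either mark. Over all nuclear bins of 2 kb the mean was 16.1 listed 5hmC cytosines and 4.84 listed 5fC cytosines. Bins with at least 2 times these means were called dense, which applied to 15.3% of nuclear bins for 5hmC and 16.7% for 5fC. In the Sox2 interval 30 of 65 bins were dense for 5hmC and 40 for 5fC. In the Klf4 interval the counts were 10 and 21 of 45, and in the Pou5f1 interval 3 and 4 of 13, the last of which is 1 kb long. That short bin, with 23 5hmC cytosines, was held to the cut for 2 kb and so not called dense for 5hmC. The Sox2 shares, 46.2% and 61.5%, and the Klf4 share for 5fC, 46.7%, were more than 2 times the nuclear ones. The Klf4 share for 5hmC, 22.2%, was nearer to the nuclear one, and the Pou5f1 counts rest on too few bins to be read apart from it. The median bin held 19 5hmC and 5 5fC cytosines in the Pou5f1 interval, 30 and 12 in that of Sox2, and 24 and 9 in that of Klf4. The nuclear medians were 10 and 1.

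**Figure D3:**
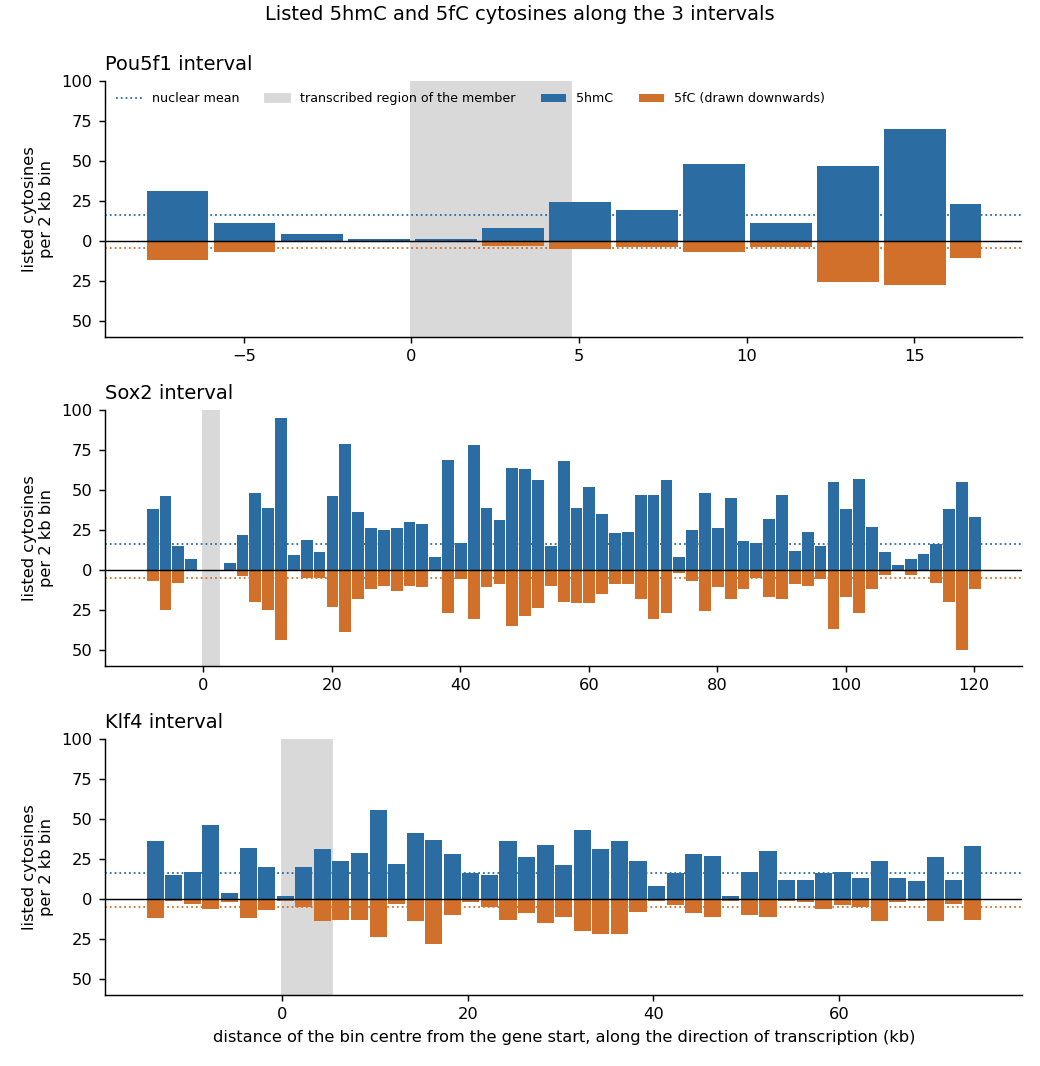
Listed cytosines per 2 kb bin along the 3 intervals, with 5hmC drawn upwards and 5fC downwards, against the distance of the bin centre from the gene start in kb along the direction of transcription. Dotted lines are the nuclear means of 16.1 and 4.84 and grey bands the transcribed regions, where the bars are low or missing at each start and up to 95 5hmC cytosines high elsewhere.

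Set against 500 kb on both sides, the Sox2 interval stood above its flanks for both marks. It held 2148 5hmC cytosines, or 16.5 per kb, against 12.5 per kb in the flanks, a ratio of 1.32 (interval 1.26 to 1.38). For 5fC it held 966 cytosines, or 7.43 against 3.82 per kb, a ratio of 1.95 (1.81 to 2.09). The 5hmC ratio was 1.43 to the lower and 1.23 to the upper flank, and the 5fC ratio 2.26 and 1.71, so the interval was denser than either side. Among nuclear windows of the same 130 kb it had more cytosines than 88.8% for 5hmC and 94.5% for 5fC.

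The Klf4 interval lay between unlike flanks. It held 1059 5hmC cytosines, or 11.8 per kb, and 407 5fC cytosines, or 4.52 per kb. The ratio to both flanks was 1.19 (interval 1.11 to 1.26) for 5hmC and 1.52 (1.37 to 1.68) for 5fC. To the lower flank, on the side of the downstream enhancers, the ratios were 0.969 and 1.08, and to the upper flank 1.53 and 2.56. The excess of the interval was therefore over the upper side, and its densities were close to those of the lower side.

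The Pou5f1 interval, which lies in the gene-rich region of the major histocompatibility complex, was below its flanks. It held 298 5hmC cytosines, or 11.9 per kb against 15.4, a ratio of 0.772 (interval 0.688 to 0.865), and 109 5fC cytosines, or 4.36 per kb against 5.99, a ratio of 0.727 (0.602 to 0.879). With flanks of 250 kb the ratios were 0.995 and 1.01, so the lower density held only against the wider surroundings. Its 5hmC density was above the nuclear mean of 8.06 per kb.

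**Figure D4:**
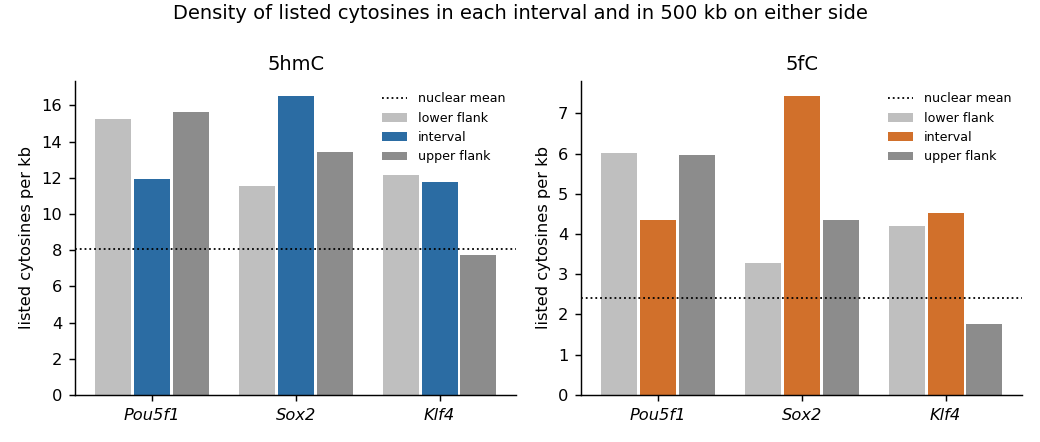
Listed cytosines per kb (bars from 0) in each interval and in the 500 kb below and above it, for 5hmC on the left and 5fC on the right, with the nuclear mean as a dotted line. Only the Sox2 bar stands above both of its flanks for 5hmC, and for 5fC the Klf4 bar also exceeds both, by a ratio of 1.08 to its lower flank.

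Inside the Pou5f1 interval, listed cytosines were concentrated beyond the gene. The bin with the most was that from 35657001 to 35659000, centred 15.0 kb after the start, with 70 5hmC and 28 5fC cytosines and 896 and 267 reads. It had more 5hmC cytosines than 98.5% of nuclear bins. This bin lies in Cchcr1, which encodes a coiled-coil protein and starts on the plus strand at 35653994. The neighbouring gene Tcf19, on the minus strand from 35653782 down to 35649675, encodes a putative transcription factor. Tcf19 held 65 5hmC but 10 5fC cytosines, while the part of Cchcr1 in the interval held 149 and 69. Relative to the nuclear ratio of 5fC to 5hmC reads, which was 0.387, Tcf19 stood at 0.348 times and Cchcr1 at 1.27 times. The ratio was thus lower in Tcf19 than in Cchcr1. Low ratios were common elsewhere: the median nuclear bin with at least 50 5hmC reads stood at 0.681 times, and 37.3% of such bins at 0.5 times or less. The lncRNA gene Gm32362, which starts at 35642682 and runs away from Pou5f1 on the minus strand, held 14 5hmC and 7 5fC cytosines over 5.097 kb.

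Among single cytosines of the Pou5f1 interval the most 5hmC reads, 90, were at position 35650782 on the plus strand, in Tcf19, where 5fC had 5 reads. The next for 5hmC were 35649824 with 74 reads and 35658725 with 69 reads, of which the latter was not listed for 5fC. The deepest 5fC cytosine, 35655661 in Cchcr1, had 74 5fC and 66 5hmC reads. The bin from 35651001 to 35653000, inside Tcf19, had 48 5hmC but 7 5fC cytosines and the lowest relative ratio of the interval, 0.312 (counting interval 0.245 to 0.397). This was above 24.4% of the nuclear bins with at least 50 5hmC reads. The bin from 35655001 to 35657000, inside Cchcr1, had 47 and 26 and the highest, 1.80 (1.60 to 2.04), above 93.4% of them. The third bin by 5fC cytosines, after that from 35657001 and this one, was the first of the interval, from 35635001 to 35637000, with 12 5fC and 31 5hmC cytosines.

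In the Sox2 interval the richest bin for 5hmC was centred 12.1 kb after the start of the gene, from 34560001 to 34562000. It held 95 5hmC and 44 5fC cytosines, more than 99.7% and 99.4% of nuclear bins. The next for 5hmC were those from 34570001 with 79 and from 34590001 with 78 cytosines. The first 2 of these bins lie within Sox2ot, a long noncoding RNA gene that spans Sox2, and the third overlaps the lncRNA gene Gm34941. Sox2ot held 548 5hmC and 238 5fC cytosines in the 36.9 kb that it shares with the interval. Gm3143, from 34615584 down to 34598562, held 337 and 136, or 19.8 and 7.99 per kb. Dense bins were spread along the interval between the gene and its far end. The deepest 5hmC cytosines, at 34566378, 34557610 and 34636100, had 119, 116 and 112 reads, and 5fC had 79, 35 and 67 reads there. The deepest for 5fC, at 34591637, 34626667 and 34649216, had 140, 123 and 118 5fC reads beside 73, 62 and 90 of 5hmC. All 6 were CG cytosines listed for both marks, and none lay within 8 kb of the start.

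A region with fewer listed cytosines than most of the interval lay far downstream of Sox2, in the part of the interval where the control region of Sox2, an enhancer cluster active in embryonic stem cells, is known to lie. The limits of that enhancer are not in the sources used here. From 34654001 to 34664000, between 105 and 115 kb after the start, 5 neighbouring bins each had fewer 5hmC cytosines than the nuclear mean. They held 47 5hmC and 15 5fC cytosines, or 4.70 and 1.5 per kb. The bins held 3 to 16 5hmC cytosines, near the nuclear median of 10 and below the interval's median of 30, and 0 to 8 5fC cytosines, so the region was low for the interval and ordinary for the genome. The second longest unlisted stretch of the interval, 1942 bases, lay here between 107127 and 109068 bases after the start. The bin that contains it, from 34656001 to 34658000, held 3 5hmC cytosines with 17 reads and no 5fC cytosine.

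From the last bin of that region to 34668000, but not in the final bin of the interval, 5fC was high relative to 5hmC. The bin from 34666001 to 34668000 held 50 5fC and 55 5hmC cytosines, with 1304 5fC and 989 5hmC reads. Its 5fC to 5hmC ratio was 3.404 times the nuclear one (counting interval 3.13 to 3.70), the highest of the interval, and 3.31 times without its deepest cytosine. It had more 5fC cytosines than 99.7% of nuclear bins. The last bin of that run, from 34662001 to 34664000, had 331 5fC and 269 5hmC reads and a relative ratio of 3.18 (2.71 to 3.73). Between them, the bin from 34664001 stood at 1.77 times (1.57 to 2.01). The final bin of the interval, from 34668001 to 34670000, stood at 0.851 times (0.709 to 1.02). The lowest ratio of the interval, 0.199 (0.105 to 0.374), was in the bin from 34584001 to 34586000 and rested on 10 reads of a single 5fC cytosine.

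Runs of at least 3 such bins below the nuclear mean, a rule chosen after the values were seen, also took in the Pou5f1 and Sox2 starts. At Pou5f1 the run went from 35637001 to 35647000 with 25 5hmC and 12 5fC cytosines, and at Sox2 from 34544001 to 34554000 with 26 and 9. In the Klf4 interval the only run went from 55486001 to 55492000, between 53.4 and 59.4 kb downstream of the start, on the side where the distal Klf4 enhancers are known to lie. It held 40 5hmC and 9 5fC cytosines in 6 kb, and each of its bins, with 12 to 16 5hmC cytosines, was above the nuclear median. Such runs took 38.5% of the bins of the Pou5f1 interval, 15.4% of those of Sox2 and 6.67% of those of Klf4. In the flanks they took 18.4%, 19.0% and 33.8%, so such runs were not more frequent in the Sox2 and Klf4 intervals than around them.

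In the Klf4 interval the bin with the most 5hmC cytosines, 56, was that from 55534001 to 55536000, centred 10.4 kb downstream of the start, with 24 5fC cytosines. The most 5fC cytosines, 28, were in the bin from 55528001 to 55530000, with 37 5hmC cytosines. The third bin by 5hmC cytosines, after that from 55534001 and one upstream of the gene, was that from 55512001 to 55514000, with 43 5hmC and 20 5fC cytosines. The deepest 5hmC cytosines, at 55475170, 55535405 and 55538023, had 123, 115 and 94 reads, and the last of them was deeper for 5fC, with 105 reads. The longest unlisted stretch of the interval, 2720 bases from 55496089 to 55498808, did not hold the start but lay between 46539 and 49258 bases downstream of it. The highest ratio was in the bin from 55510001 to 55512000, centred 34.4 kb downstream, with 671 5fC and 575 5hmC reads. It stood at 3.01 times the nuclear ratio (counting interval 2.70 to 3.37), and the next bin downstream, from 55508001, at 2.61 times (2.32 to 2.94). A pair of 5fC cytosines in the former carried many of these reads. One was a CT cytosine at 55511394 on the plus strand, with 188 5fC and 32 5hmC reads, and the other a CG cytosine at 55511416 on the minus strand, with 153 and 90. Without the CG cytosine the bin stood at 2.76 times, without the CT cytosine at 2.30 times and without both at 1.88 times, under the 2 times used below for a high ratio.

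Ratios upstream of Klf4 were uneven. The bins from 55546001 and 55548001, next to the start, stood at 1.00 and 1.51 times the nuclear ratio, and those beyond them were lower. The bin from 55552001 to 55554000, centred at -7.65 kb from the start, had 46 5hmC but 6 5fC cytosines, with 619 and 77 reads and a relative ratio of 0.321 (0.254 to 0.407). The bins on its sides, from 55550001 and from 55554001, stood at 0.306 (0.143 to 0.658) and 0.345 (0.247 to 0.484). These side bins rested on only 2 and 3 5fC cytosines, with 7 and 38 5fC reads. All 3 bins were above 23.96 to 26.5% of the nuclear bins with at least 50 5hmC reads. The lncRNA gene Gm34343, which overlaps these bins, had 59 5hmC and 10 5fC cytosines and 0.370 times the nuclear ratio. The lowest ratio of the interval, 0.201 (0.0896 to 0.452), rested on 6 5fC reads in the bin from 55490001 to 55492000.

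Ratios of 2 kb bins were taken where 5hmC had at least 50 reads. At least 2 times the nuclear ratio was reached by 6 of 59 such bins in the Sox2 interval, 4 of 44 in that of Klf4 and 0 of 9 in that of Pou5f1, and by 4.4% of nuclear bins. At most 0.5 times was seen in 3, 7 and 3 of them, against 37.3% of nuclear bins. The median relative ratio was 1.21 in the Sox2, 1.02 in the Klf4 and 1.09 in the Pou5f1 interval, each above the nuclear median of 0.681. Summed over an interval, 5fC reads relative to 5hmC reads were 1.38 times the nuclear ratio for Sox2 (counting interval 1.35 to 1.40), 1.27 for Klf4 (1.24 to 1.31) and 0.979 for Pou5f1 (0.922 to 1.04). The flanks stood at 1.06, 1.03 and 1.10. The Sox2 and Klf4 intervals were thus richer in 5fC relative to 5hmC than their flanks, and that of Pou5f1 was not. The reads of the marks went up and down together along the bins, with a Spearman correlation of 0.90 over 65 bins for Sox2, 0.87 over 45 for Klf4 and 0.80 over 13 for Pou5f1. Neighbouring bins are not independent, and both marks were read through cuts of the same enzyme in the same sequence.

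**Figure D5:**
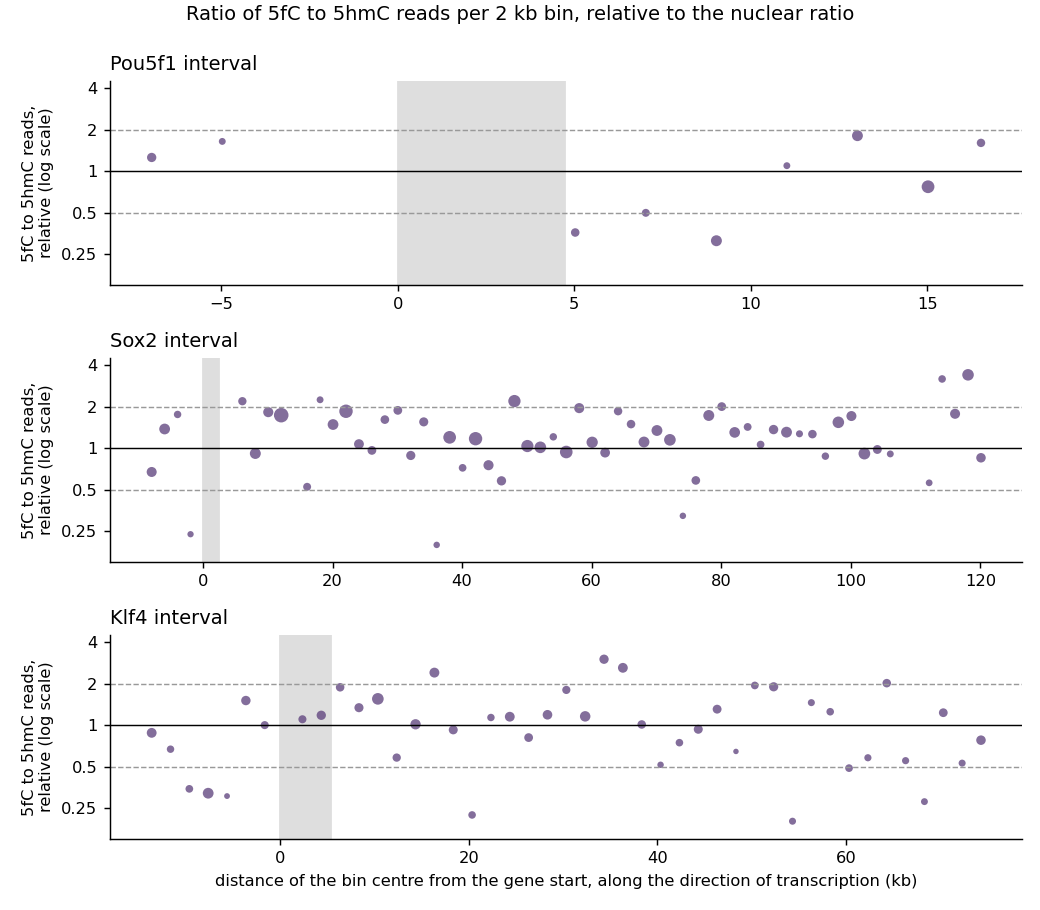
Reads of 5fC over reads of 5hmC per 2 kb bin, divided by the nuclear ratio of 0.387 (vertical, log scale), against the distance of the bin centre from the gene start in kb. Points grow with the number of 5hmC cytosines, dashed lines mark 0.5 and 2 times, bins with under 50 5hmC reads are left out, and the highest points are 3.404 near the far end of the Sox2 interval and 3.01 in that of Klf4.

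Each CG offers a cytosine on both strands, together called a dyad, and the share of dyads listed on both was set beside that of the flanks. In the Sox2 interval 45.0% of 1048 5hmC dyads (interval 42.1 to 48.1%) and 27.3% of 578 5fC dyads (23.9 to 31.1%) were listed on both strands, against 42.6% and 22.2% in its flanks. For 5fC the counting intervals of Sox2 and of its flanks (20.6 to 23.9%) overlapped only at their edge. The upper flank alone, at 23.8% (21.6 to 26.2%), overlapped with the Sox2 interval, whereas the lower flank, at 20.2% (17.8 to 22.7%), did not. In the Klf4 interval the shares were 39.0% of 518 and 24.2% of 236 dyads, against 40.2% and 19.3%, with overlapping intervals. In the Pou5f1 interval they were 35.4% of 161 and 16.7% of 72 dyads, against 42.0% and 22.6%, again with overlapping intervals. Over the nuclear genome 39.6% and 20.3% were listed on both strands.

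Of the 5fC cytosines 76.0% in the Sox2 interval, 73.5% in that of Klf4 and 72.5% in that of Pou5f1 had 5hmC listed at the very same base, and the counting intervals overlapped with those of the flanks, where the shares were 77.5%, 76.5% and 75.8%. In the other direction 34.2% of the 5hmC cytosines of the Sox2 interval were listed for 5fC, against 23.7% in its flanks. For Klf4 these shares were 28.2% and 22.97%, and for Pou5f1 26.5% and 29.4%. Both marks on both strands were found at 112 dyads of the Sox2 interval, 42 of that of Klf4 and 6 of that of Pou5f1. Shared cytosines had a median of 17 5hmC reads in the Sox2 and Klf4 intervals and 11 in that of Pou5f1, against 7, 6 and 7 at 5hmC cytosines without 5fC.

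Listed cytosines outside CG were more frequent for 5hmC in the Sox2 interval than around it. CG made up 70.8% of its 5hmC cytosines (interval 68.8 to 72.7%), against 76.7% in the flanks (75.9 to 77.4%). For Klf4 the share was 68.0% (65.1 to 70.7%) against 73.7% (72.9 to 74.6%), but the lower flank alone stood at 70.1%. For Pou5f1 it was 73.2% against 71.2%. The 5fC shares of 76.2%, 72.0% and 77.1% for Sox2, Klf4 and Pou5f1 were within 3 percentage points of their flanks. Of the 628 non-CG 5hmC cytosines of the Sox2 interval 66.6% had a listed CG dyad 20 to 23 bases downstream on their strand, as did 66.5% in the flanks. In the Klf4 interval the share was 53.7% of 339, against 51.5% in the flanks, and in that of Pou5f1 73.8% of 80, against 67.7%. Whether non-CG cytosines at this fixed distance are themselves modified was not tested.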

How the data were processed

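For each of the 2 marks the authors deposited a table of raw read counts at single cytosines, with position, dinucleotide and strand. Per the submitters' processing notes, CASAVA, bcl2fastq, cutadapt and Bowtie were used with build mm9. The sources used here do not give the way in which cytosines were listed, 5fC was told from 5hmC and libraries were pooled. The labels of the passage 12 libraries also point to the 5hmC table, but its name carries the mark b1, so it was taken as that of biological replicate 1, the passage 14 culture. Summed counts were 264006904 reads for nuclear 5hmC and 102252280 for nuclear 5fC. These sums are not the sequencing depth.

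Cytosines were counted per interval, in 500 kb flanks and in 2 kb bins. Nuclear bins ran from the first to the last listed base of each chromosome. The bins of the Pou5f1 interval did not lie on the grid of the nuclear bins. Intervals for densities come from the share of cytosines in the interval, and those for ratios from the reads. RefSeq sequences of build GRCm38 were matched to listed cytosines by dinucleotide and strand. The planned rule needed at least 10 listed cytosines under a single 300 base promoter. Matching promoters together was added after the data were seen, because the members' promoters held too few. Its score was matches less 3 for each mismatch. All promoters that could be placed alone gave the same offset as the joint match. These were 10 around Pou5f1, 4 around Sox2, all of Gm3143 or Gm21388, and only 1 around Klf4, that of Gm34231. Gene ends rest on the RefSeq length. Exons, introns and enhancers were not annotated here.

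For each interval the text names the 3 bins with the most cytosines of each mark, the highest and lowest ratio, the longest unlisted stretch and the deepest cytosines. Other bins were named after their values were seen. The members and lists were chosen with earlier results of these data known. Alternatives were at least 5 or at least 10 reads, CG alone, flanks of 250 kb and bins shifted by 1 kb. Leaving out the deepest cytosines of the bins with the highest and lowest ratio was added after the data were seen. The functions were tested on simulated data. Python 3.11.15 with numpy 2.4.6, pandas 2.3.3 and matplotlib 3.10.9 was used.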

Additional observations from a re-analysis of the deposited data

How the results depend on the processing

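With flanks of 250 kb the density ratio of the Pou5f1 interval was 0.995 for 5hmC and 1.01 for 5fC, the latter on the other side of 1, and that of the Sox2 interval was 1.17 and 1.62. With at least 10 reads per cytosine the 5hmC density ratio was 0.666 for Pou5f1 and 1.425 for Sox2, and the relative 5fC to 5hmC ratio of Sox2 was 1.32. The share of dyads on both strands then fell to 20.2% for Pou5f1, 29.6% for Sox2 and 25.7% for Klf4 with 5hmC and to 20.0% for Sox2 with 5fC. With at least 5 reads it was 40.2% for Sox2 and 34.3% for Klf4 with 5hmC. With CG cytosines alone the 5hmC density ratio was 1.22 for Sox2 and 1.09 for Klf4, and the relative ratio of Sox2 was 1.43. The cause of these moves was not tested. Of 71 values under alternatives, 52 stayed within the counting interval of the main value or, for counts of dense bins, within 1.5 times. The lowest bin ratio of the Sox2 interval rested on a single 5fC cytosine, and the highest of the Klf4 interval fell to 1.88 without its 2 deepest 5fC cytosines. No paired analysis was possible because neither table separates its libraries, and for the same reason no library could be left out.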
